A study of Mus musculus with 12 samples.

Results

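The receptors for corticosteroids and a set of genes that these hormones regulate were described in the cerebral cortex of 12 mice, 4 each of MRL/lpr, Fn14ko and MRL/+. The members were all probes other than control probes that the array files name Nr3c1, Nr3c2, Fkbp5, Sgk1, Tsc22d3, Hsd11b1, Cdkn1a, Pdk4, Sult1a1 or Plin4, which are 10 of the 29608 gene names on the array. MRL/lpr mice carry the lpr loss-of-function mutation of Fas on the MRL background and develop a lupus-like disease with neuropsychiatric signs. Fn14ko mice are littermates of the MRL/lpr mice, in the eighth backcross generation. The paper describes them as MRL/lpr mice that lack Fn14, the receptor of the cytokine TWEAK, so they carry lpr as well. MRL/+ mice (MRL/MpJ) were the controls. All were adult females of about 12 weeks, killed in diestrus, and were otherwise untreated. The MRL/lpr and Fn14ko mice came from one breeder and the MRL/+ mice from another, so source and group cannot be told apart between MRL/+ and the other groups.

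Corticosterone, the main glucocorticoid of mice, enters the brain and binds a pair of nuclear receptors. The mineralocorticoid receptor, the product of Nr3c2, has the higher affinity and is occupied at resting hormone levels, and the glucocorticoid receptor, the product of Nr3c1, is filled during stress and at the daily peak. The receptors rest in complexes with Hsp90 and its co-chaperones, move to the nucleus when hormone binds, and activate genes through a palindromic DNA element. Genes such as Fkbp5, Tsc22d3 and Sgk1 are commonly read as indicators of this activity. No hormone level was among the measurements used here.

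The 10 genes were covered by 14 probes and 32 spots. Of these, 9 genes with 11 probes and 23 spots passed the filters and were tested. Nr3c2 was the member left out, because its foreground was under 2 times the local background in 1 sample, and 2 of the 3 Cdkn1a probes were left out for the same reason in 6 and 8 samples. A signal is given in units of the median spot of its own sample, so signals compare mice for one probe or gene and never different genes. Differences are on the log2 scale, with the standard error (SE) of a limma fit over 17302 genes and Benjamini-Hochberg adjusted p-values over all of them. The threshold was 0.05, with 4 mice in each group, and the median SE over all genes was 0.25. Exact permutation p-values are 2-sided and cannot fall below 0.0286.

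Some samples stood apart. Each array held 2 mice of one group, replicates 1 and 3 in the Cy3 channel and replicates 2 and 4 in the Cy5 channel, and both arrays of a group shared a slide and a scan, so slide, scan and group cannot be told apart. In the Cy5 channel of MRL/+, 35.0% and 21.2% of spots were well above background, against 56.6% to 70.03% in the other 10 samples. The control spots named DarkCorner had a median foreground of 6.88 and 6.66 times background there, against 1.26 to 2.74 times in the others. Only 15 and 9 spots fell under 2 times background in that channel, against 8465 to 14724 in the others, so this filter removed little there. In Fn14ko replicate 1, the summed signal of 7 striatal neuron markers was 167, against 10.2 to 43.0 in the other mice. As a check of the labels, Tnfrsf12a, the gene of Fn14, had signals of 0.604 to 0.777 in Fn14ko, 0.943 to 1.28 in MRL/+ and 1.38 to 1.90 in MRL/lpr, so all Fn14ko mice lay below all others, though whether its probe lies in the deleted stretch was not known. By limma, Fn14ko differed from MRL/+ by -0.67 (adjusted p = 0.104), which did not pass, and MRL/lpr differed from Fn14ko by 1.27 (adjusted p = 0.00287). Fas, the gene mutated in lpr, had signals of 0.164 to 0.284 in MRL/lpr, 0.171 to 0.331 in Fn14ko and 0.186 to 0.647 in MRL/+, so the groups overlapped, and MRL/lpr differed from MRL/+ by -1.14 (adjusted p = 0.1003), which did not pass. Cortical neuron markers were measured in every mouse.

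In MRL/lpr cortex, Hsd11b1 and Fkbp5 were lower than in MRL/+ and also lower than in Fn14ko, each by about 1 log2 unit and with no overlap between the 4 mice of either group. Nr3c1 was higher in MRL/lpr than in MRL/+ by 0.91 (SE 0.25), but its groups overlapped and its pair of probes disagreed. The remaining 6 tested members did not pass the threshold in any comparison. With all 12 mice, 3 of 9 members passed in MRL/lpr against MRL/+ by limma, 1 higher and 2 lower, where 6.03% of all genes were higher and 8.37% were lower. In MRL/lpr against Fn14ko, 2 members were lower and 0 higher, with 1.99% of all genes lower and 2.58% higher. In Fn14ko against MRL/+, 0 members passed by limma or by the methods' t-test after adjustment, 2 had an unadjusted limma p under 0.05 (21.9% of all genes did) and 1 an unadjusted p under 0.05 by the methods' t-test (15.2% of all genes), and 0.237% of all genes were higher and 0.717% lower. When dim spots were kept, and by the methods' t-test after adjustment, 0 members passed in any comparison. Keeping dim spots also changes the median spot that sets the unit, and it moved 8 of the 9 members by the same 0.60 in MRL/lpr against MRL/+ and Cdkn1a by 0.55.

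The glucocorticoid receptor gene, Nr3c1, was measured by a bright probe at chr18:39571641-39571700 and a dim one at chr18:39574183-39574242 (mm9, minus strand). The gene's signal, which follows the bright probe, was 2.92, 1.13, 2.45 and 1.47 in MRL/lpr replicates 1 to 4, 1.75, 1.19, 2.53 and 1.43 in Fn14ko, and 1.40, 0.656, 1.94 and 0.541 in MRL/+. Within each group the Cy3 samples were higher than the Cy5 samples, and the lowest values of all were those of MRL/+ in Cy5, the channel that stood apart. The difference of MRL/lpr from MRL/+ was 0.91 (SE 0.25, adjusted p = 0.0321, exact permutation p = 0.143), with 0.70 within Cy3 and 1.11 within Cy5. The call was lost without the Cy5 samples of MRL/+, at 0.61 (adjusted p = 0.260), with no dye term (adjusted p = 0.178), in Cy3 samples alone (adjusted p = 0.104), and on leaving out MRL/lpr replicate 1 (adjusted p = 0.0704) or replicate 4 (0.0609), Fn14ko replicate 2 (0.0570) or MRL/+ replicate 4 (0.178). Fn14ko exceeded MRL/+ by 0.74 (SE 0.25, adjusted p = 0.145), which did not pass, and without Fn14ko replicate 1 or MRL/+ replicate 3 it did, at 0.91 (adjusted p = 0.0472) and 0.95 (adjusted p = 0.0467). MRL/lpr differed from Fn14ko by 0.16 (95% confidence interval -0.38 to 0.71).

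The probes of Nr3c1 pointed opposite ways. By the bright probe, MRL/lpr exceeded MRL/+ by 1.31 (SE 0.36, adjusted p = 0.0290 in the fit over 22419 probes), with signals of 2.06 to 5.58 against 0.607 to 3.51. By the dim probe, the difference was -0.90 (SE 0.31, adjusted p = 0.0677), with 0.253, 0.206, 0.235 and 0.2998 in MRL/lpr against 0.448, 0.563, 0.374 and 0.474 in MRL/+, which do not overlap. Fn14ko lay with MRL/lpr on both probes, at 1.13 (adjusted p = 0.116) and -0.86 (adjusted p = 0.153) against MRL/+. When the log2 values of the probes were averaged instead of their signals, the difference of MRL/lpr from MRL/+ was 0.20 (SE 0.18, adjusted p = 0.418) and no longer passed. The dim probe was well above background in 3 mice of MRL/lpr, 4 of Fn14ko and 2 of MRL/+. In MRL/+ replicates 2 and 4, both in Cy5, the foreground was 7.69 and 5.08 times background for the bright probe. For the dim probe it was 3.98 and 3.59 times. The DarkCorner control spots of these samples stood at 6.88 and 6.66 times, so only the bright probe in replicate 2 exceeded them.

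The mineralocorticoid receptor gene, Nr3c2, was near the detection limit. Its probe, at chr8:79766370-79766429 (mm9, plus strand), had signals of 0.105, 0.146, 0.0997 and 0.181 in MRL/lpr, 0.288, 0.255, 0.128 and 0.197 in Fn14ko, and 0.442, 0.638, 0.324 and 0.695 in MRL/+. All 4 MRL/+ mice lay above every other mouse, but the probe was well above background in only 2 of them, both in Cy3, and in 2 MRL/lpr and 4 Fn14ko mice. In MRL/+ replicates 2 and 4, in Cy5, its foreground was 5.41 and 5.72 times background, below the 6.88 and 6.66 times of the DarkCorner control spots. The Nr3c2 signal was 1.42 to 2.42 times the lowest signal of the sample in MRL/lpr, 3.42 to 7.49 times in Fn14ko and 3.00 to 13.7 times in MRL/+. In the unit of these signals, the log2 difference of MRL/lpr from MRL/+ was -1.88 within Cy3 and -2.04 within Cy5. That of Fn14ko from MRL/+ was -0.98 and -1.57, and that of MRL/lpr from Fn14ko -0.91 and -0.46. Keeping dim spots changed the median spot that sets the unit, so the fitted differences are not in the unit of these signals. The limma fit over 38661 probes then gave -1.36 (SE 0.29, adjusted p = 0.0867) for MRL/lpr against MRL/+. It gave -0.55 (adjusted p = 0.563) for Fn14ko against MRL/+ and -0.81 (adjusted p = 0.386) for MRL/lpr against Fn14ko. The 2 dim Cdkn1a probes were also highest on average in MRL/+, with means of 0.332 and 0.328 against 0.108 to 0.146 in the other groups.

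**Figure D1:**
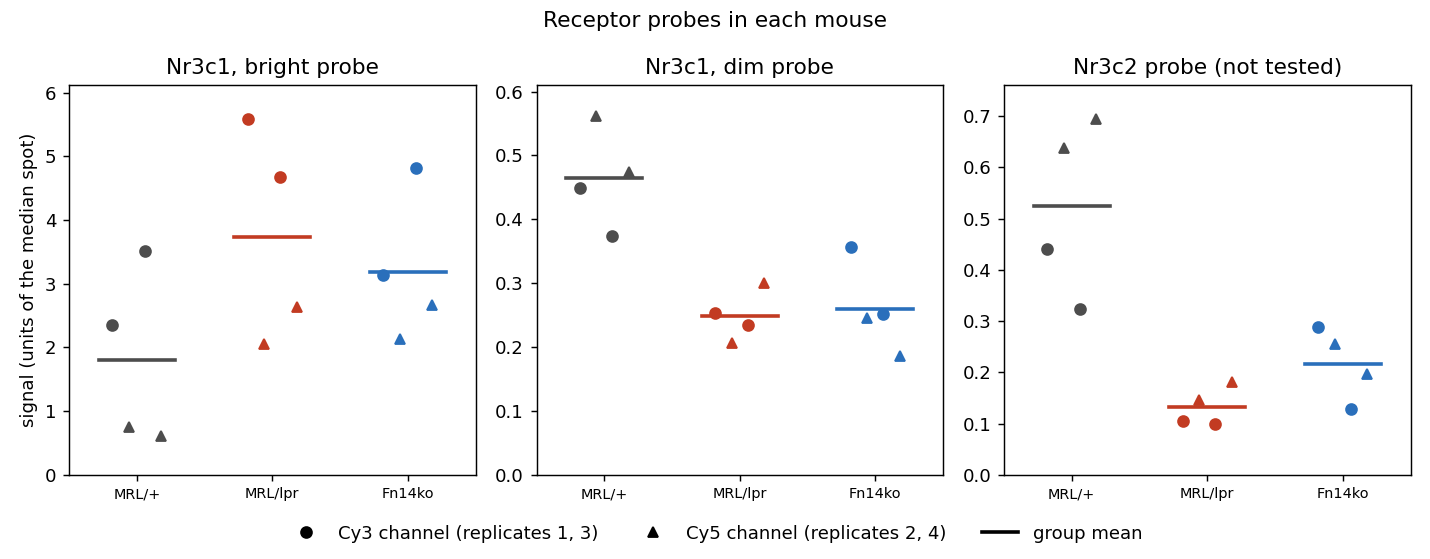
Signal of the 2 Nr3c1 probes and the Nr3c2 probe in each mouse (vertical axis in units of the sample's median spot, from 0). Circles are Cy3 samples, triangles Cy5 samples and bars group means. On the bright Nr3c1 probe the Cy5 samples of MRL/+ are lowest (0.748 and 0.607), whereas on the dim Nr3c1 probe and on Nr3c2 all MRL/+ mice lie above all MRL/lpr mice.

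Over the 12 mice, the log2 signal of Nr3c1 was most like that of Neurl4 (Pearson's r = 0.978), of a transcript that the array names XM_001473587 (r = 0.971) and of Fdx2 (r = 0.970). The signal of Nr3c2 was most like that of Tcf12 (r = 0.994), Dux (r = 0.988) and Nos1 (r = 0.986), but its probe was not well above background in 4 of the 12 mice. These values are a description, since the mice share dyes, slides and groups.

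Fkbp5 encodes an Hsp90 co-chaperone that lowers the affinity of the glucocorticoid receptor for hormone and is itself induced by the receptor. Its signal was 2.36, 2.84, 2.49 and 2.08 in MRL/lpr, 5.77, 5.19, 3.36 and 7.30 in Fn14ko, and 4.87, 6.02, 3.94 and 4.52 in MRL/+. Every MRL/lpr mouse lay below every other mouse, and Fn14ko and MRL/+ overlapped over most of their ranges. MRL/lpr differed from MRL/+ by -0.98 (SE 0.27, adjusted p = 0.0294, exact permutation p = 0.0286), with -0.85 within Cy3 and -1.10 within Cy5. It differed from Fn14ko by -1.10 (SE 0.27, adjusted p = 0.0330, exact permutation p = 0.0286), with -0.86 within Cy3 and -1.34 within Cy5. The difference between Fn14ko and MRL/+ was 0.12 (95% confidence interval -0.45 to 0.70, adjusted p = 0.776).

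Both Fkbp5 calls were close to the threshold. That against MRL/+ was lost without the Cy5 samples of MRL/+ (-0.97, adjusted p = 0.182), in Cy3 samples alone (adjusted p = 0.0690), and on leaving out MRL/lpr replicate 1 (adjusted p = 0.0550) or replicate 4 (0.0594), Fn14ko replicate 2 (0.0537) or MRL/+ replicate 4 (0.145). That against Fn14ko was lost without the Cy5 samples of MRL/+ (adjusted p = 0.125), in Cy3 alone (0.121), in Cy5 alone (0.0601) and on leaving out MRL/lpr replicate 1 (0.0724) or 4 (0.0684), Fn14ko replicate 1 (0.0673), 2 (0.0739) or 4 (0.0528), or MRL/+ replicate 3 (0.115) or 4 (0.165). Over the fits that left out 1 mouse, the difference was -1.07 to -0.84 against MRL/+ and -1.32 to -0.93 against Fn14ko.

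Hsd11b1 encodes the reductase that regenerates active corticosterone from its inactive keto form inside cells. Its probe was printed 10 times, and the 6 retained spots had coefficients of variation of 6.89% to 14.6% within a sample. The signal was 1.20, 1.02, 0.941 and 1.04 in MRL/lpr, 2.28, 2.42, 2.63 and 3.12 in Fn14ko, and 2.55, 1.90, 2.71 and 1.96 in MRL/+. The highest MRL/lpr mouse was below the lowest of the other 8 mice, and within MRL/lpr the values varied by only 10.3% (coefficient of variation, n = 4). MRL/lpr differed from MRL/+ by -1.11 (SE 0.20, adjusted p = 0.00383) and from Fn14ko by -1.31 (SE 0.20, adjusted p = 0.00254). Each exact permutation p was 0.0286. Both calls held on leaving out any 1 mouse, with differences of -1.19 to -1.01 and -1.39 to -1.20, and without the Cy5 samples of MRL/+, at -1.36 (adjusted p = 0.00650) and -1.31 (adjusted p = 0.00470). Fn14ko differed from MRL/+ by 0.21 (95% confidence interval -0.22 to 0.63), with -0.10 within Cy3 and 0.51 within Cy5.

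Sgk1 and Tsc22d3, other common readouts of receptor activity, did not pass the threshold in any comparison. Sgk1, a kinase that regulates ion channels and transporters, had signals of 6.22, 6.99, 8.89 and 4.42 in MRL/lpr, 8.58, 9.24, 9.40 and 13.8 in Fn14ko, and 6.25, 6.86, 8.91 and 7.31 in MRL/+. MRL/lpr and MRL/+ covered much the same range, and MRL/lpr replicate 4 and Fn14ko replicate 4 were the extremes. The differences were -0.18 (SE 0.29, adjusted p = 0.677) for MRL/lpr against MRL/+, 0.47 (adjusted p = 0.314) for Fn14ko against MRL/+ and -0.65 (adjusted p = 0.250) for MRL/lpr against Fn14ko.

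Tsc22d3 encodes GILZ, a leucine zipper protein that mediates anti-inflammatory effects of glucocorticoids. Its signal was 8.40, 8.67, 10.3 and 9.42 in MRL/lpr, 15.4, 8.67, 9.54 and 9.79 in Fn14ko, and 9.58, 9.11, 7.56 and 6.76 in MRL/+. The groups overlapped, and Fn14ko replicate 1, the mouse with the high striatal markers, stood alone at the top. The differences were 0.17 (95% confidence interval -0.32 to 0.66), 0.37 (-0.12 to 0.86) and -0.20 (-0.69 to 0.29), in the order used for Sgk1, with adjusted p of 0.609, 0.312 and 0.710 by limma. Against MRL/+, a fall of Tsc22d3 in MRL/lpr as large as the fitted -0.98 of Fkbp5 lay outside its interval.

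The metabolic members had differences below 0 in MRL/lpr against Fn14ko that did not pass the threshold. Plin4, a coat protein of lipid droplets, had signals of 0.584, 1.19, 0.936 and 0.537 in MRL/lpr, 4.98, 2.19, 1.33 and 2.00 in Fn14ko, and 3.14, 2.46, 0.892 and 1.42 in MRL/+. All MRL/lpr mice lay below all Fn14ko mice, while MRL/+ replicate 3 lay among the MRL/lpr mice. The difference was -1.60 (SE 0.52, adjusted p = 0.112, exact permutation p = 0.0286) against Fn14ko and -1.20 (SE 0.52, adjusted p = 0.124, exact permutation p = 0.0857) against MRL/+. Without Fn14ko replicate 1 the first was -1.20 (adjusted p = 0.179), and the difference of Fn14ko from MRL/+ went from 0.39 to 0.0021.

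Pdk4, a kinase that shuts off pyruvate dehydrogenase, had signals of 0.638, 0.563, 0.864 and 0.669 in MRL/lpr, 1.33, 0.787, 0.788 and 0.772 in Fn14ko, and 0.865, 0.964, 0.608 and 0.729 in MRL/+. The Fn14ko mice other than replicate 1 lay between 0.772 and 0.788, inside the MRL/+ range. The difference of MRL/lpr from Fn14ko was -0.40 (SE 0.25, adjusted p = 0.419), and -0.22 (adjusted p = 0.633) without Fn14ko replicate 1. Against MRL/+, MRL/lpr differed by -0.21 (adjusted p = 0.552). The Pdk4 probe was well above background in 3 of the 4 MRL/+ mice. In MRL/+ replicate 4, its foreground was 5.66 times background, below the 6.66 times of the DarkCorner control spots.

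Sult1a1, a sulfotransferase of phenolic compounds, was read by 2 overlapping probes. The gene's signal was 1.73, 1.85, 1.52 and 1.30 in MRL/lpr, 2.84, 2.36, 1.96 and 2.97 in Fn14ko, and 2.25, 1.74, 1.23 and 1.38 in MRL/+. The 4 Fn14ko mice lay above the 4 MRL/lpr mice and partly above MRL/+. Against Fn14ko, MRL/lpr differed by -0.66 (SE 0.24, adjusted p = 0.163, exact permutation p = 0.0286), and Fn14ko exceeded MRL/+ by 0.64 (adjusted p = 0.175), while MRL/lpr and MRL/+ differed by -0.02 (95% confidence interval -0.55 to 0.51). Cdkn1a, the cyclin-dependent kinase inhibitor, had signals of 1.08 to 1.95 in MRL/lpr, 0.755 to 2.07 in Fn14ko and 0.765 to 1.81 in MRL/+. Its differences of 0.10, -0.06 and 0.16 each had an SE of 0.39, and its 8 retained spots varied by 8.16% to 30.5% within a sample.

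**Figure D2:**
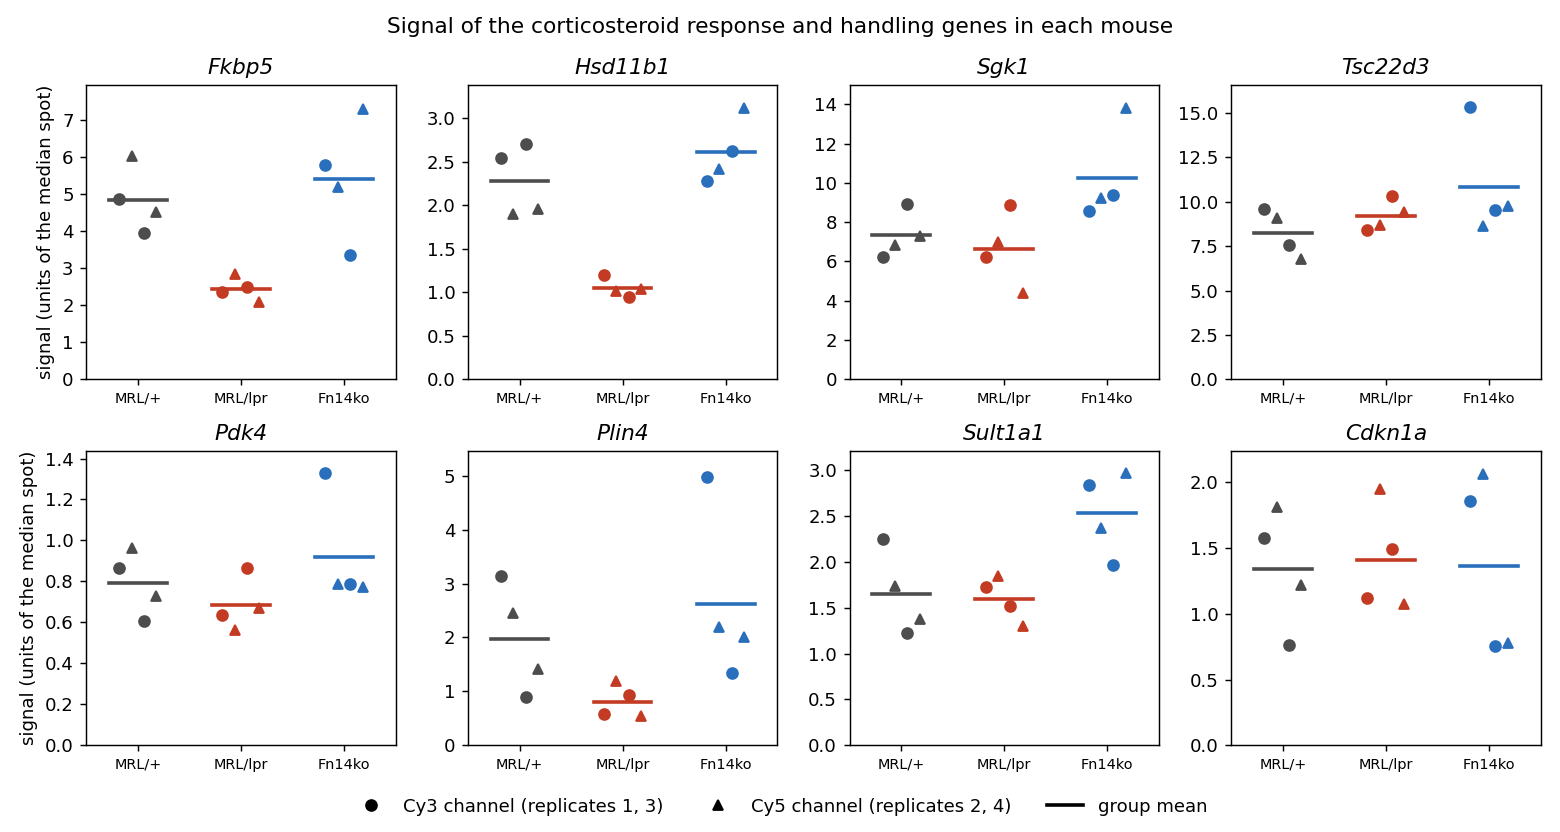
Signal of 8 members in each mouse (vertical axis in units of the sample's median spot, from 0), with circles for Cy3 samples, triangles for Cy5 samples and bars for group means. For Hsd11b1 and Fkbp5 the MRL/lpr mice lie below all 8 other mice. Fn14ko replicate 1 is the highest mouse for Tsc22d3 (15.4), Pdk4 (1.33) and Plin4 (4.98).

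Groups failed to overlap for 2 of 9 members in MRL/lpr against MRL/+, where 23.9% of all genes did not overlap, for 0 in Fn14ko against MRL/+ (13.5% of all genes) and for 4 in MRL/lpr against Fn14ko (20.3% of all genes). The median difference of the 9 members was -0.18, 0.37 and -0.65 in these comparisons, against -0.10, -0.10 and -0.07 over all genes. The comparisons share groups, so the negative median against Fn14ko and the positive median of Fn14ko rest in part on the same 4 mice. Within groups, the log2 signals of Tsc22d3 and Pdk4 ran together over the 12 mice (r = 0.87, group means removed), as did those of Plin4 and Cdkn1a (r = 0.81), of Plin4 and Sult1a1 (r = 0.79) and of Fkbp5 and Sult1a1 (r = 0.74). These correlations are descriptions of mice that share dyes and slides, and each includes Fn14ko replicate 1.

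**Figure D3:**
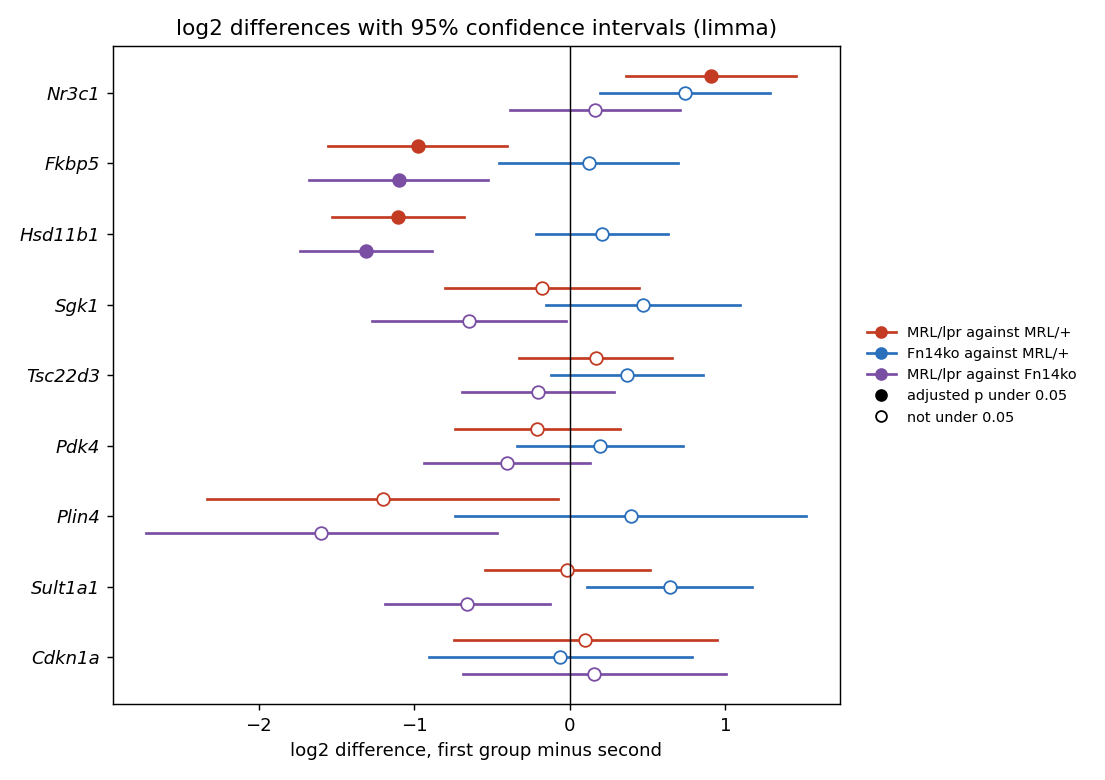
log2 differences of the 9 tested members in the 3 comparisons (horizontal axis, first group minus second), with 95% confidence intervals from limma and 4 mice per group. Filled points passed an adjusted p of 0.05. Filled points below 0 are Fkbp5 and Hsd11b1 in MRL/lpr against both other groups, and the filled point above 0 is Nr3c1 in MRL/lpr against MRL/+.

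The receptors bind a palindrome, AGAACA, 3 free bases, then TGTTCT. It was searched on both strands, with up to 2 mismatches in the 12 fixed bases, in RefSeq promoters (GRCm38.p6) that run from 250 bases before to 50 after each gene start. Of the members, 9 had 17 promoters in the table, and Nr3c1 had none. The palindrome was in 3 of the 17 promoters and in 1.84% of all 32851 promoters. Counted by gene, it was in 2 of the 9 members, Sgk1 with 2 of its 6 listed promoters and Sult1a1 with 1, and in 2.1% of all 27025 genes. The single arm TGTTCT, which is part of an exact palindrome, was in 5 of the 17 and in 19% of all promoters, or in 3 of the 9 members and in 21.3% of all genes. The stretches below are shown because they hold the palindrome, in capitals, or belong to the members that were lower in MRL/lpr, and all end before the gene start.
Sgk1 promoter at chr10:21993640-21993759 (plus strand), exact palindrome: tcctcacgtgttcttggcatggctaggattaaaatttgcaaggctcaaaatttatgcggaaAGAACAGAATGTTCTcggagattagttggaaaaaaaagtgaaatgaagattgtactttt
Sgk1 promoter at chr10:21985854-21985973 (plus strand), 2 mismatches: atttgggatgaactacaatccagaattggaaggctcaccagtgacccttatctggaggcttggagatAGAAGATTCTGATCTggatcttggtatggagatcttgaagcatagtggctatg
Sult1a1 promoter at chr7:126676419-126676538 (minus strand), 2 mismatches: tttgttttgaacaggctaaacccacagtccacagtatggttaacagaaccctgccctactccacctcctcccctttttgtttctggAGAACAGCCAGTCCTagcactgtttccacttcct
Fkbp5 promoter at chr17:28486150-28486399 (minus strand), no match: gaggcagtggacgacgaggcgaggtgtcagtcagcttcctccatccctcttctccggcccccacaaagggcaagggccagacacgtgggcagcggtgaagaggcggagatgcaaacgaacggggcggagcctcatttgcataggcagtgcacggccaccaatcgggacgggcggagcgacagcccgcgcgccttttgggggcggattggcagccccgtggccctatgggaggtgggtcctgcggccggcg
Hsd11b1 promoter at chr1:193242361-193242610 (minus strand), no match: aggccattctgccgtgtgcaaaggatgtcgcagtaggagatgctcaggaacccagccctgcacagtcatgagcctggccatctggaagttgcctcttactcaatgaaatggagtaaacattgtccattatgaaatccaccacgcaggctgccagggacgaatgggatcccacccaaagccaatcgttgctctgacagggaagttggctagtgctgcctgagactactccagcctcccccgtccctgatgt

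The exact palindrome of Sgk1 begins at position -189 from one of its 6 listed starts, and the inexact one of Sult1a1 at position -34. Neither gene passed the threshold in any comparison, and the members that were lower in MRL/lpr, Fkbp5 and Hsd11b1, held neither the palindrome nor the single arm in this window. The search covers these letters in these windows only, and elements farther from the start were not searched.

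The wider pathway was read from 5 lists with 86 genes, of which 74 were tested. Compared with MRL/+, 7 were higher and 2 lower in MRL/lpr, or 12.2% of the 74 against 14.4% of all genes (6.03% higher and 8.37% lower). The median was 0.01 and 38 of 74 differences were above 0, against a median of -0.10 and 43.4% above 0 over all genes. Compared with Fn14ko, 3 were higher and 2 lower, or 6.76% against 4.57% of all genes (2.58% higher and 1.99% lower), with a median of -0.21 and 26 of 74 above 0. In Fn14ko against MRL/+, 0 of 74 passed by limma or by the methods' t-test after adjustment, 18 had an unadjusted limma p under 0.05 (24.3%, against 21.9% of all genes) and 12 an unadjusted p under 0.05 by the methods' t-test (16.2%, against 15.2%), and the median was 0.11 with 51 above 0. When dim spots were kept, 0 of 74 passed in any comparison, and by the methods' t-test after adjustment 2 passed, Crhr1 and Tgm2, both in MRL/lpr against MRL/+. Without the Cy5 samples of MRL/+, 3 still passed when MRL/lpr was compared with MRL/+ and 5 when it was compared with Fn14ko, while Fn14ko and MRL/+ had 0. Leaving out 1 mouse gave 3 to 18 in the first comparison, the lowest without MRL/+ replicate 4 and the highest without MRL/+ replicate 3, 0 to 6 in the second, the highest again without MRL/+ replicate 3, and 3 to 10 in the third, the lowest without Fn14ko replicate 2 or MRL/+ replicate 4 and the highest without Fn14ko replicate 3.

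Among 14 chaperones and co-chaperones of the receptors, 1 was higher in MRL/lpr than in both other groups. Ppp5c, a phosphatase that binds Hsp90 in receptor complexes, had signals of 6.34, 9.13, 6.59 and 8.16 in MRL/lpr, 2.45, 4.05, 3.86 and 4.88 in Fn14ko, and 3.36, 4.26, 3.86 and 5.00 in MRL/+. The MRL/lpr mice lay above all others, by 0.87 (SE 0.19, adjusted p = 0.0106) over MRL/+ and 1.01 (SE 0.19, adjusted p = 0.00851) over Fn14ko, and the first call was lost without the Cy5 samples of MRL/+ (adjusted p = 0.0704) or without MRL/+ replicate 4 alone (adjusted p = 0.0540). From the scanner's processed signal that difference was 0.30 (adjusted p = 0.163), and in Cy3 samples alone it was 0.84 (adjusted p = 0.0558). Against Fn14ko, 10 of the 13 alternatives other than leaving out 1 mouse kept the Ppp5c call. The median of the 14 genes was 0.21 against MRL/+ and -0.05 against Fn14ko. Among 14 coregulators, Ncoa2, a coactivator of nuclear receptors, was higher in MRL/lpr than in MRL/+ by 0.57 (SE 0.17, adjusted p = 0.0459), with signals of 2.46 to 2.80 against 1.46 to 2.10. Without the Cy5 samples of MRL/+, its difference was 0.39 (adjusted p = 0.303), and from the processed signal it was 0.50 (adjusted p = 0.0876). In Cy3 samples alone it was 0.40 (adjusted p = 0.266) and in Cy5 samples alone 0.73 (adjusted p = 0.0530). Leaving out any mouse other than Fn14ko replicates 1 and 4 and MRL/+ replicate 3 also ended the call, with adjusted p of 0.0516 to 0.212.

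Of 14 genes for the synthesis, inactivation and transport of corticosteroids, 9 were tested. Hsd11b2, which inactivates corticosterone, Serpina6, its carrier in plasma, and the adrenal enzymes Cyp11a1, Cyp11b1 and Cyp11b2 were too dim. Abcb1a, the efflux pump P-glycoprotein of the blood-brain barrier, which carries glucocorticoids, was higher in MRL/lpr than in MRL/+ by 0.73 (SE 0.23, adjusted p = 0.0474), with signals of 1.31 to 2.09 against 0.851 to 1.15. It lost the call without the Cy5 samples of MRL/+ (0.77, adjusted p = 0.177), from the processed signal (0.98, adjusted p = 0.0552), in Cy5 samples alone (0.55, adjusted p = 0.182), and on leaving out any mouse other than MRL/lpr replicate 2 and Fn14ko replicates 1 and 4 (adjusted p = 0.0520 to 0.144). H6pd, which supplies the cofactor of the Hsd11b1 enzyme, did not pass (-0.50, adjusted p = 0.0855).

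The list of Crh, Avp, Pomc and related genes, read here in cortex only, held the largest differences that passed among the lists. Of its 14 genes, 7 were tested, and in MRL/lpr against each other group 2 were higher and 1 lower. The median of the 7 was -0.48 against MRL/+, with 2 above 0, and -0.11 against Fn14ko, with 3 above 0. Crhr1, the main receptor of corticotropin-releasing hormone, had signals of 4.06, 3.77, 3.40 and 3.02 in MRL/lpr, 1.10, 1.09, 2.12 and 0.925 in Fn14ko, and 0.941, 0.969, 1.46 and 1.53 in MRL/+. All MRL/lpr mice exceeded all others, by 1.57 (SE 0.29, adjusted p = 0.00476) over MRL/+ and 1.52 (SE 0.29, adjusted p = 0.00978) over Fn14ko. Its brighter probe gave 1.80 and 1.62 (adjusted p = 0.00277 and 0.00934) and its dimmer one 0.49 and 0.90 (adjusted p = 0.293 and 0.173), the same direction in both.

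Crh, the hormone itself, had signals of 0.882, 0.990, 0.674 and 0.920 in MRL/lpr, 0.410, 0.399, 0.352 and 0.343 in Fn14ko, and 0.464, 0.769, 0.261 and 0.422 in MRL/+. MRL/lpr did not overlap with Fn14ko, at 1.19 (SE 0.28, adjusted p = 0.0263), and overlapped with MRL/+, at 0.95 (SE 0.28, adjusted p = 0.0385), where 5 of the 12 fits that left out 1 mouse kept the call. The others, without any 1 MRL/lpr mouse, Fn14ko replicate 2 or 3 or MRL/+ replicate 4, gave adjusted p of 0.0522 to 0.131, and against Fn14ko the call was lost without MRL/lpr replicate 1 (0.0766), Fn14ko replicate 2 (0.0935) or 4 (0.0559) or MRL/+ replicate 4 (0.0980). In Cy5 samples alone, the Crh call against MRL/+ was lost as well (0.75, adjusted p = 0.108). Against Fn14ko, 8 of the 12 alternatives other than leaving out 1 mouse kept the Crh call. Mc4r, the melanocortin receptor that peptides of Pomc activate, went the other way. Its signal was 0.169, 0.234, 0.193 and 0.188 in MRL/lpr, 0.718, 1.35, 0.486 and 0.840 in Fn14ko, and 0.923, 0.941, 0.593 and 0.581 in MRL/+. The difference was -1.93 (SE 0.30, adjusted p = 0.00199) against MRL/+ and -2.03 (SE 0.30, adjusted p = 0.00249) against Fn14ko, and the calls of Mc4r and Crhr1 held on leaving out any 1 mouse and without the Cy5 samples of MRL/+. They did not hold when dim spots were kept, with adjusted p of 0.158 and 0.105 for Mc4r and 0.149 and 0.533 for Crhr1 against MRL/+ and Fn14ko. By the methods' t-test, Mc4r (adjusted p = 0.0973 and 0.199) and Crhr1 against Fn14ko (0.0542) also missed the threshold. In the Cy5 samples of MRL/lpr, Mc4r was near the lowest retained signal of the sample, at 0.234 and 0.188 against 0.159 and 0.147. In the Cy3 samples it was 0.169 and 0.193 against 0.0679 and 0.0640. The fit to spots well above background in all samples did not include Mc4r, Crh or Abcb1a, nor Tgm2 and Klf15, which are described below.

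Of 30 further genes known to be induced by corticosteroids in brain, 2 were higher and 1 lower in MRL/lpr than in MRL/+, with a median of 0.05. Per1, a clock gene with a receptor-bound promoter, was higher by 1.46 (SE 0.28, adjusted p = 0.00639), with signals of 9.88, 7.02, 9.76 and 7.28 against 3.14, 2.27, 5.61 and 2.17. Fn14ko resembled MRL/lpr here, with 5.93, 6.55, 8.60 and 7.75, and its difference of 1.22 from MRL/+ did not pass (adjusted p = 0.0599). Tgm2, a transglutaminase, was higher by 0.75 (SE 0.21, adjusted p = 0.0356), with 1.89 to 2.24 in MRL/lpr against 1.06 to 1.41 in MRL/+, and Fn14ko spanned 1.73 to 3.13. Both lost the call without the Cy5 samples of MRL/+, at 1.11 (adjusted p = 0.0600) and 0.52 (adjusted p = 0.302), and from the processed signal, at 0.45 (adjusted p = 0.114) and 0.86 (adjusted p = 0.0942), and Tgm2 also in Cy3 samples alone (0.0609) and without MRL/lpr replicate 1 (0.0772) or 3 (0.0670) or MRL/+ replicate 4 (0.207).

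Zbtb16, a zinc finger transcription factor, was lower in MRL/lpr than in MRL/+ by -0.71 (SE 0.18, adjusted p = 0.0203), with signals of 6.74, 6.20, 5.46 and 5.46 against 8.70, 9.02, 11.1 and 10.2 in MRL/+ and 8.77, 10.03, 8.97 and 7.74 in Fn14ko. The groups did not overlap, and against Fn14ko the difference was -0.57 (adjusted p = 0.0933). The call against MRL/+ was lost in Cy3 samples alone (adjusted p = 0.105), in Cy5 samples alone (adjusted p = 0.0630) and without the Cy5 samples of MRL/+ (adjusted p = 0.0961), MRL/lpr replicate 3 (0.0514) or MRL/+ replicate 4 (0.0902). Klf15, a Kruppel-like factor, passed against Fn14ko at -0.97 (SE 0.22, adjusted p = 0.0209), with 0.805, 0.857, 0.640 and 0.514 in MRL/lpr against 1.45, 1.54, 1.11 and 1.36 in Fn14ko. It was -0.64 (adjusted p = 0.0640) against MRL/+, whose mice had 0.883 to 1.29. The call against Fn14ko was lost from the processed signal (-1.09, adjusted p = 0.0638), in Cy3 samples alone (0.0643) and without Fn14ko replicate 2 (0.0746) or MRL/+ replicate 3 (0.0525) or 4 (0.0731). Of the 12 alternatives other than leaving out 1 mouse, 7 kept it. In the list as a whole, 24 of 30 differences were above 0 in Fn14ko against MRL/+ (median 0.43) and 7 of 30 in MRL/lpr against Fn14ko (median -0.41), with 43.0% and 42.8% above 0 over all genes. In Fn14ko against MRL/+, 0 of the 30 passed by limma and 9 had an unadjusted limma p under 0.05, where 21.9% of all genes did. This comparison and MRL/lpr against Fn14ko share the Fn14ko mice.

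**Figure D4:**
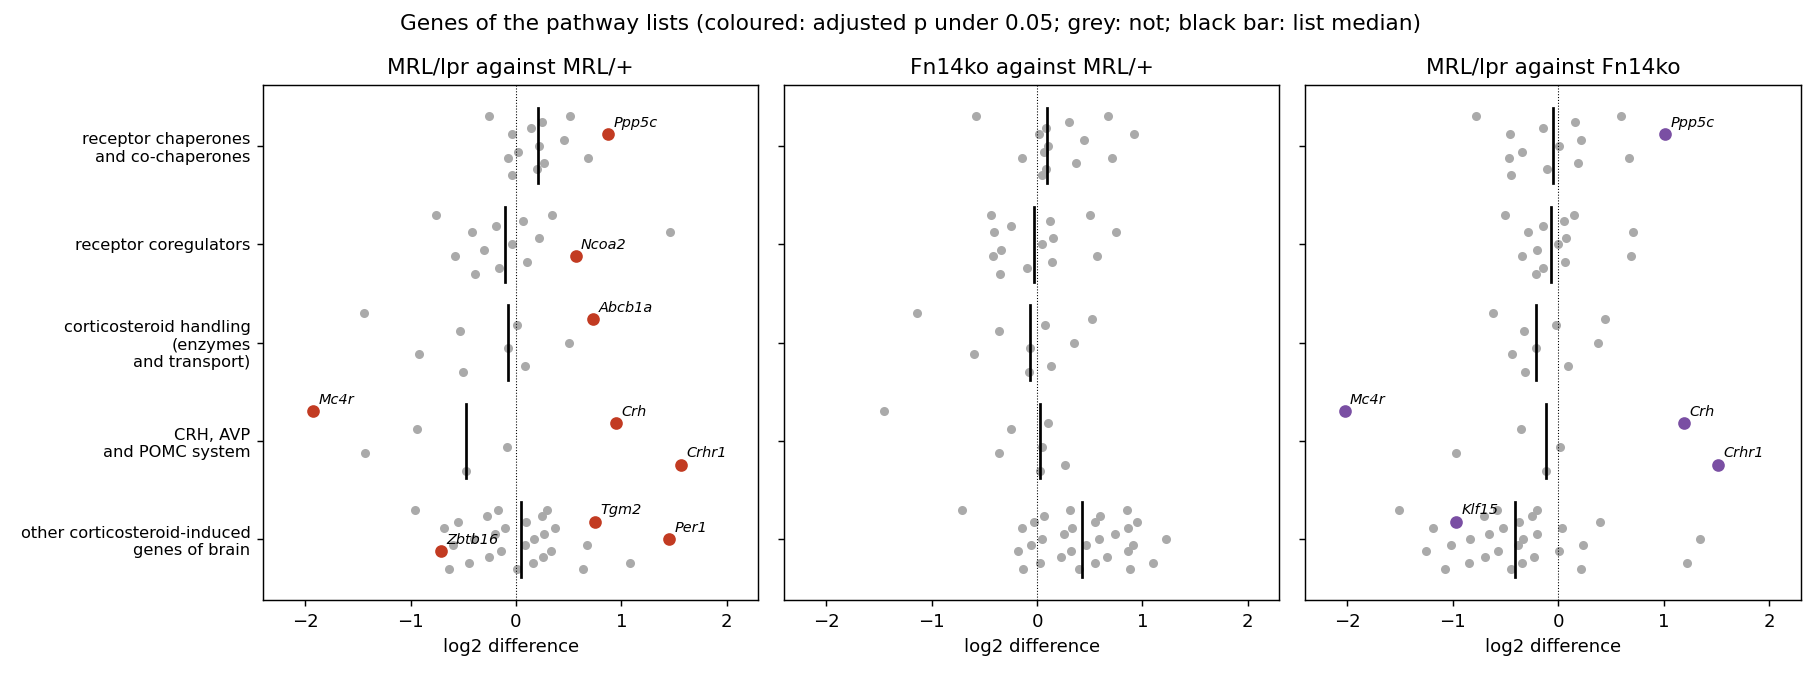
log2 differences (horizontal axis, first group minus second) of the 74 tested genes of 5 lists, with 1 panel for each comparison. Coloured, named points passed an adjusted p of 0.05, grey points did not, and black bars mark list medians. Crhr1 (1.57 and 1.52) and Mc4r (-1.93 and -2.03) stand farthest out in MRL/lpr against MRL/+ and Fn14ko, and no gene is coloured in Fn14ko against MRL/+.

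Markers of other cell types moved with these results, and cortex is a mixture in which fewer cells of a type and less RNA per cell cannot be told apart. The summed signal of 8 oligodendrocyte markers was 44.3 to 66.4 in MRL/lpr, 67.9 to 88.7 in Fn14ko and 69.1 to 83.2 in MRL/+, so, like Fkbp5 and Hsd11b1, every MRL/lpr mouse lay below all others. Of the 8, 3 were lower in MRL/lpr than in MRL/+, Mbp by -1.63 (adjusted p = 0.0110) and Cldn11 by -1.19 (adjusted p = 0.00397) most, and 2 were lower than in Fn14ko, Mobp by -1.18 and Cnp by -1.16. No oligodendrocyte marker was at 0.

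The sum of 10 endothelial markers was 26.5 to 28.1 in MRL/lpr, 19.3 to 27.0 in Fn14ko and 13.5 to 17.3 in MRL/+, with 4 markers higher in MRL/lpr than in MRL/+ and 3 higher in Fn14ko than in MRL/+. Ly6c1 led both, by 1.47 (adjusted p = 0.00827) and 1.49 (adjusted p = 0.0393). The endothelial list did not rise as a whole. Of its 10 differences from MRL/+, 7 were above 0 in MRL/lpr (median 0.55) and 6 in Fn14ko (median 0.16). Cdh5 (-0.89 and -1.16), Pecam1 (-0.24 and -0.51) and Emcn (-0.15 and -0.21) were below 0 in both. MRL/lpr mice had 93.1 to 232 for the sum of 8 tested blood cell markers, against 35.1 to 96.6 for Fn14ko mice and 27.4 to 48.1 for MRL/+ mice. Most of this sum was the hemoglobin gene Hba-a1, with signals of 88.7 to 225 in the MRL/lpr group. Only Hba-a1 passed against MRL/+, where it was higher in MRL/lpr by 2.37 (adjusted p = 0.00456). The list as a whole did not rise: 3 of the 8 differences from MRL/+ were above 0, with a median of -0.19. Ptprc (-0.83), Cd79a (-0.56), Cd3e (-0.27), S100a9 (-0.19) and Slc4a1 (-0.19) were below 0. The sum of the 6 tested choroid plexus markers was 6.56 to 98.7 in MRL/lpr, 13.4 to 181 in Fn14ko and 17.0 to 265 in MRL/+, with 1 of them, Clic6, lower in MRL/lpr than in MRL/+ by -2.51 (adjusted p = 0.0486) and than in Fn14ko by -2.96 (adjusted p = 0.0494). None of the 6 differences was above 0 in either comparison, with medians of -1.56 and -2.17. Of 8 microglia markers, Aif1 was higher in MRL/lpr than in MRL/+ by 1.17 (adjusted p = 0.0271), and of 8 mural cell markers, Pdgfrb was higher by 0.61 (adjusted p = 0.0310) and Cspg4 lower by -0.59 (adjusted p = 0.0368).

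Neuron markers moved in both directions in MRL/lpr against MRL/+. Of 8 markers of excitatory neurons, 2 were higher, Tbr1 by 1.53 (adjusted p = 0.00432) and Emx1 by 0.74 (adjusted p = 0.0260), and 2 lower, Neurod6 by -1.70 (adjusted p = 0.0132) and Slc17a7 by -1.08 (adjusted p = 0.00926). Of 8 markers of inhibitory neurons, which include cells that make Crh, 3 were higher and 0 lower, with Npy at 1.37 (adjusted p = 0.00565) and Vip at 1.26 (adjusted p = 0.00292). Of these 8 differences, 5 were above 0, and Dlx1 (-0.72), Gad2 (-0.05) and Sst (-0.02) were below. Against Fn14ko, Neurod6 was lower by -2.11 (adjusted p = 0.00766) and Vip higher by 1.09 (adjusted p = 0.0109). The lists went the other way there, with 5 of 8 excitatory differences (median 0.36) and 3 of 8 inhibitory ones (median -0.15) above 0. The part of any cell type in the differences of the corticosteroid genes was not tested.

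**Figure D5:**
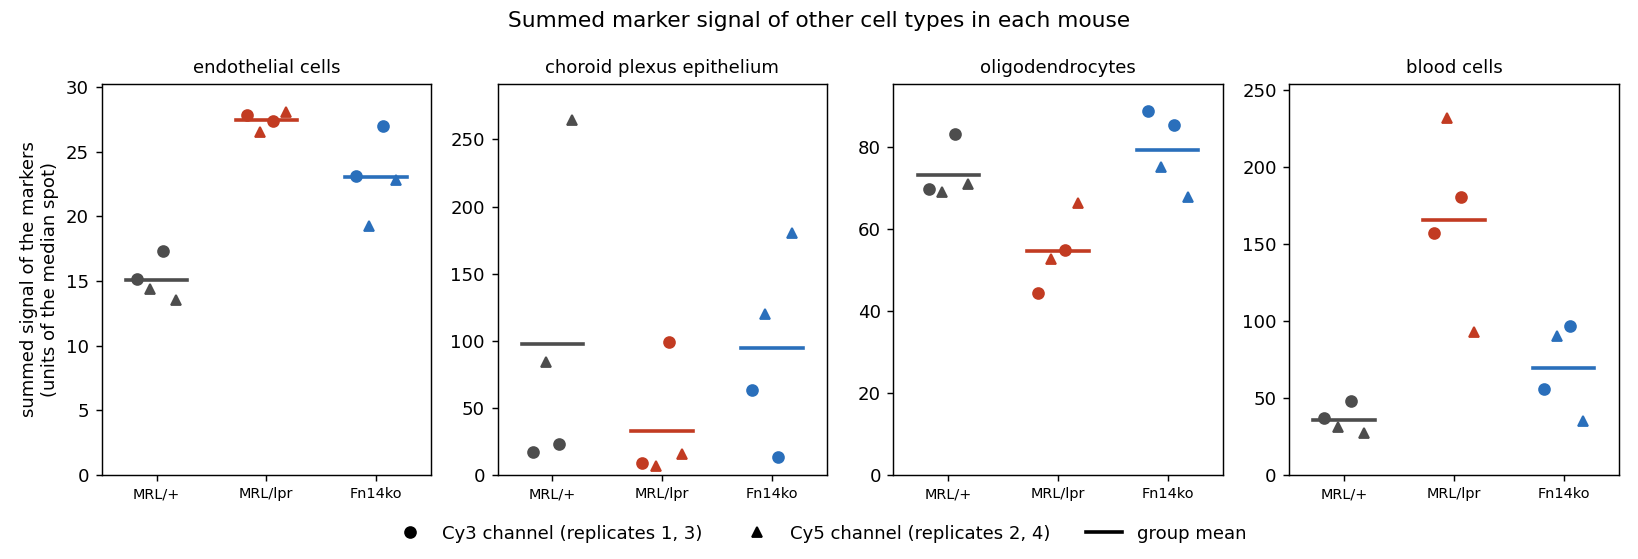
Summed signal of the markers of 4 cell types in each mouse (vertical axis in units of the sample's median spot, from 0), with circles for Cy3 samples, triangles for Cy5 samples and bars for group means. The 4 MRL/lpr mice are lowest for oligodendrocytes (44.3 to 66.4), and for endothelial cells the 4 MRL/+ mice are lowest (13.5 to 17.3).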

How the data were processed

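RNA of 12 cortices was read on 6 Agilent 2-colour arrays, each with 2 mice of the same group, one in each dye. Replicates were separate mice. The deposited files hold, per the file headers, the scanner's mean foreground and median background intensity of each spot, and a processed signal that the Feature Extraction software (12.1.0.3 by those headers) had background-subtracted and dye-normalized, used here only as an alternative. Probe positions are on mm9. Of 43020 non-control spots, 1952 marked as uneven or outliers and 17781 with foreground under 2 times background in any sample were left out, which left 24255 spots (some met both criteria). The intensity was corrected by normexp (offset 50), divided by the sample's median retained spot, averaged over spots of a gene and taken to log2. limma 3.58.1 in R 4.3.3 fitted group and dye with array as a random block (correlation 0.316) to 17302 genes. The number of arrays limits the precision. Fits were tested on simulated data.

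The genes described in depth were all members, and of the lists every gene past an adjusted p of 0.05. The members and lists were chosen with earlier results of these data known, so counts over them are descriptions. Alternatives changed background correction, normalization, filters, probe averaging, dye, block and samples. The methods' t-test (unequal variances) was run without their further fold cut-off. The fit to Cy5 samples alone was added after seeing the data. Promoters came from RefSeq (GRCm38.p6).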

Additional observations from a re-analysis of the deposited data

Results flagged for a closer look

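Of 30 groups of 4 signals, 10 genes in 3 groups, 3 held a mouse whose gap to its nearest neighbour took up more of the group's range than Dixon's critical value for 4 samples allows, where chance marks about 1 in 20 groups. All 3 were in Fn14ko. Sgk1 was 13.8 in Fn14ko replicate 4 against 8.58 to 9.40 in the others (share of the range 0.843). Tsc22d3 was 15.4 in Fn14ko replicate 1 against 8.67 to 9.79 (0.833). Pdk4 was 1.33 in Fn14ko replicate 1 against 0.772 to 0.788 (0.972). Fn14ko replicate 1 is also the mouse with a striatal marker sum of 167, and the part of that in Tsc22d3 and Pdk4 was not tested. Without it, the differences of Fn14ko from MRL/+ were 0.19 for Tsc22d3 and 0.01 for Pdk4.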

How the results depend on the processing

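In MRL/lpr against MRL/+, 2492 genes passed, and 5140 did with background subtraction, 5070 with loess, 22 with no filter on dim spots, 5189 with no array block, 871 without the Cy5 samples of MRL/+, 1356 in Cy3 samples, 4549 in Cy5 samples, 721 by the methods' t-test and 781 to 5551 with 1 mouse left out (fewest without MRL/+ replicate 4, most without MRL/+ replicate 3). In Fn14ko against MRL/+, 165 passed, and in that order 2837, 2068, 0 (1683 at an unadjusted p under 0.05), 1881, 6, 166, 4787, 2 and 8 to 2164, with 1012 from the processed signal, 805 from spots well above background and 294 with no dye term. In MRL/lpr against Fn14ko, 790 passed, and 2849 did with background subtraction, 1889 from the processed signal, 2140 with loess, 32 with no filter, 1782 with no array block, 469 in Cy3, 509 in Cy5, 181 by the t-test and 357 to 1002 with 1 mouse left out. Of the genes called in Fn14ko against MRL/+, 24.8% were higher, and 41.0% with background subtraction, 11.96% from the processed signal and 54.1% with loess, which moved the median of all genes from -0.10 to 0.04. The cause of these changes was not tested.

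Of 9 members, 3 passed in MRL/lpr against MRL/+, and 0 with no filter or by the t-test, 1 without the Cy5 samples of MRL/+ or in Cy3 samples, and 1 to 3 with 1 mouse left out. In Fn14ko against MRL/+, 0 passed, 1 (Nr3c1) with background subtraction, loess, no array block or Cy5 samples, and 0 to 1 with 1 mouse left out. In MRL/lpr against Fn14ko, 2 passed, 4 with background subtraction, 0 with no filter or by the t-test, 1 without the Cy5 samples of MRL/+, in Cy3 or in Cy5 samples, and 1 to 2 with 1 mouse left out. Hsd11b1 lost its calls only with no filter (-0.51, adjusted p = 0.534, and -1.44, adjusted p = 0.540) and by the methods' t-test. Keeping dim spots moved 8 of 9 members alike, by 0.60, 0.73 and -0.13 in the 3 comparisons, so the changes of direction of Sgk1, Sult1a1 and Pdk4 there are this shared shift.

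Replicate numbers were not taken to pair the mice, since same-numbered deviations correlated from -0.13 to 0.72, with 8 of 12 correlations over 0.1. With a replicate block in place of the dye term, 5597, 1209 and 1624 genes and 4, 0 and 4 members passed in these 3 comparisons, with Plin4 gained against MRL/+ (adjusted p = 0.0373) and Plin4 (0.0270) and Sult1a1 (0.0427) against Fn14ko.

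Direction changed in these fits, none of them past the threshold. For MRL/lpr against MRL/+, Tsc22d3 was -0.228 (processed signal), -0.099 (loess) and -0.0349 (spots well above background), and Pdk4 was 0.142 (processed), 0.39 (no filter), 0.0633 (no MRL/+ Cy5 samples) and 0.0337 (Cy3). Cdkn1a was -0.00532 (processed), -0.0296 (loess), -0.244 (well above), -0.0369 (Cy5) and -0.0769 to 0.285 with 1 mouse left out. Sgk1 was 0.422 (no filter) and -0.384 to 0.0466 (1 mouse), and Sult1a1 0.582 (no filter), 0.000961 (Cy5) and -0.108 to 0.152 (1 mouse). For Fn14ko against MRL/+, Fkbp5 was -0.161 (loess), -0.104 (well above) and -0.0505 to 0.341 (1 mouse), Hsd11b1 -0.0375 (loess), -0.0296 (well above), -0.0472 (no MRL/+ Cy5 samples) and -0.0993 (Cy3), Cdkn1a 0.621 (no filter), 0.0921 (no MRL/+ Cy5 samples), 0.108 (Cy3), 0.0225 (t-test) and -0.246 to 0.162 (1 mouse), and Pdk4 -0.105 (Cy5). For MRL/lpr against Fn14ko, Nr3c1 was -0.0171 (Cy5) and -0.00161 to 0.272 (1 mouse), and Cdkn1a -0.0634 to 0.345 (1 mouse). The pathway genes that passed kept their direction in all fits run.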
